A study of Mus musculus and synthetic construct with 32 samples.

Results

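Cohesin is the ring of proteins that holds sister chromatids together, and germ cells entering meiosis build additional versions of it. The 9 genes described here encode its core subunits. The meiotic subunits are Rec8, Rad21l, Stag3 and Smc1b, and the mitotic subunits, which nearly all dividing cells use, are Smc1a, Smc3, Rad21, Stag1 and Stag2. They were chosen by name, were listed in sense exons and sense introns of all 4 mouse tables, and stand among 22750 gene names in those tables. All 9 passed a floor of 10 on the mean normalized count in exons of every table.

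A cohesin ring consists of a pair of SMC proteins, a kleisin that closes them, and a STAG protein bound to the kleisin. SMC1B can take the place of SMC1A, REC8 or RAD21L that of the kleisin RAD21, and STAG3 that of STAG1 or STAG2, whereas SMC3 serves both kinds of ring. In spermatocytes and oocytes the meiotic rings help to form the chromosome axis on which homologs pair and synapse, and STAG3 joins rings with either meiotic kleisin. Oocytes load meiotic cohesin before birth, and mouse ovaries around birth hold oocytes in prophase I, while spermatocytes first appear in the testis in the second postnatal week.

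The study compared C57BL/6J mice that lack Ythdc2 (labelled -/-) with heterozygous (+/-) or wild-type (+/+) mice by total RNA sequencing. Ythdc2 encodes an RNA helicase whose YTH domain binds N6-methyladenosine (m6A), a base modification of mRNA. The testis libraries at postnatal day 12 (P12) were 3 knockout and 3 heterozygous, those at P8 were 2 knockout, 1 heterozygous and 1 wild-type, and the newborn ovary libraries (P0) were 2 knockout and 2 heterozygous. For m6A, fragmented polyadenylated RNA of wild-type testis at P8 was immunoprecipitated with an m6A antibody, as 1 immunoprecipitate and 1 input. Per the labels' protocols there were 2 knockout lines, the first with stop codons placed in an exon of the helicase region and the second without that exon, and the labels do not say which line a library came from. Whole testes and ovaries were sequenced, so fewer cells of a type and less RNA per cell cannot be told apart in any value below.

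The tables give a mean normalized count over all libraries, a log2 fold change and an adjusted p for each comparison, not a value per library, so the spread between libraries is not printed. Some rows with very few counts had small folds. In P12 exons these were Prm2 (0.02 at a mean count of 0.83), Acrv1 (-0.02 at 0.52) and Insl3 (-0.07 at 4.56). Folds at low counts may thus understate a difference, and the percentages of a control level below are computed from these folds. Nothing in the labels says that libraries of a group came from separate animals, so the p-values measure the spread between libraries. The P8 controls and the P8 m6A immunoprecipitate and input were groups of 1 library, which have no spread of their own. P-values of those comparisons therefore do not measure a spread within these groups. Summed over every feature, mean normalized counts came to 23754190 to 42229589 per table. Ythdc2 exons had a log2 fold of -1.29 in P12 testis (DESeq2 adjusted p = 9.87e-25), of -0.43 in P0 ovary (adjusted p = 0.584) and of -0.50 in P8 testis against wild type (adjusted p of 1) by the authors' deposited tables. A count of all exons together cannot show whether 1 exon was altered. Between the heterozygous and the wild-type library at P8, the spermatid markers Prm1, Prm2 and Tnp1 had log2 folds of 0.51, 0.74 and 0.35 by the authors' deposited table, a comparison of 1 library with 1 and so with no replicate check. Knockout folds at P8 are given against both controls, with wild type first.

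Measured against their mitotic counterparts within each table, the meiotic subunits were most abundant in P12 testis. Exons of Smc1b, the germline SMC1, had 2.15 times the mean normalized count of Smc1a at P12, 1.01 times at P8 and 0.437 times in P0 ovary. Stag3 exons had 0.746 times the mean normalized count of Stag1 at P12, 0.540 times at P8 and 0.127 times in ovary. Of the kleisins, Rec8 stood at 0.0940 times Rad21 at P12, 0.0347 times at P8 and 0.0280 times in ovary. Rad21l stood at 0.0550 times Rad21 at P12, 0.0123 times at P8 and 0.0162 times in ovary, the lowest of these ratios in each table. From P8 to P12 the ratio of Rad21l to Rad21 grew 4.47-fold, that of Rec8 to Rad21 2.71-fold, that of Smc1b to Smc1a 2.14-fold and that of Stag3 to Stag1 1.38-fold. The counts are not divided by transcript length, so a ratio is no ratio of molecules. The same pair can be followed across tables, although each table was normalized separately and pools knockout with control libraries, and no test was possible.

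**Figure D1:**
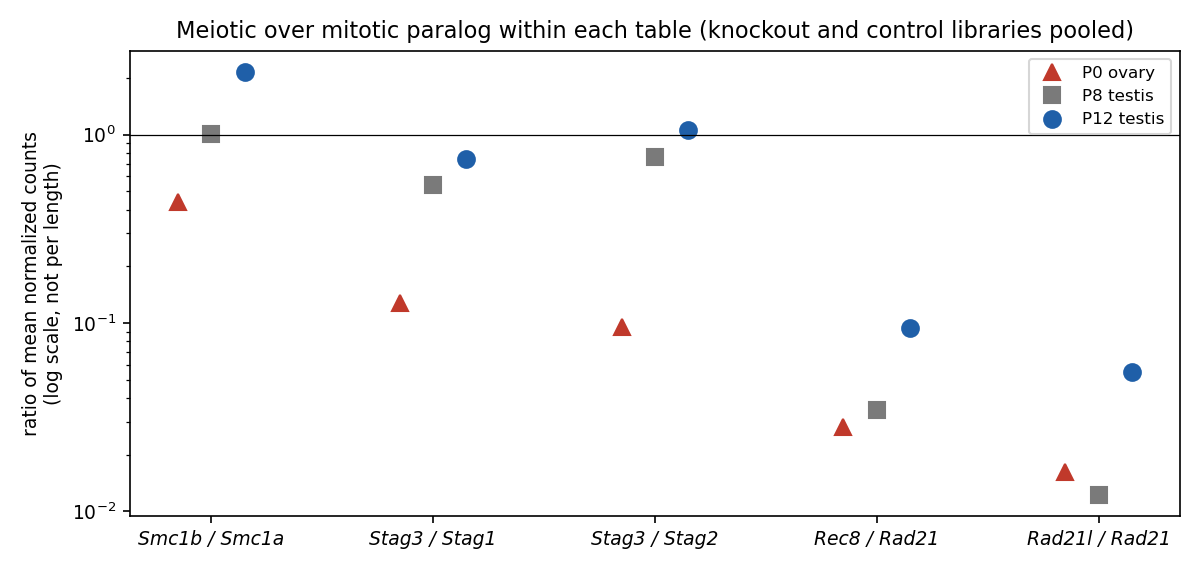
Ratio of the mean normalized exon count of a meiotic subunit to that of a mitotic subunit (log axis) in the P0 ovary, P8 testis and P12 testis tables, 1 point per table. P12 testis has the highest ratio for all 5 pairs, and the ratio of Smc1b to Smc1a reaches 2.15 there.

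In P12 testis the knockout had less RNA of a meiotic kleisin and of the meiotic STAG protein, while the other meiotic kleisin and the mitotic subunits did not pass the test. Rad21l fell to 42.2% of the heterozygous level, a log2 fold of -1.24 at a mean normalized count of 335 (adjusted p = 3.53e-15) by the authors' deposited table. Stag3 fell to 67.4%, a log2 fold of -0.57 at a mean count of 3908 (adjusted p = 0.00111) by the authors' deposited table. So 2 of the 9 subunits were called lower and 0 higher in exons, against 0.784% of the 15558 tested genes called lower and 0.0964% higher. Rad21l had the 9th lowest fold of those genes and Stag3 the 83rd lowest.

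The remaining meiotic subunits of P12 testis lay on either side. Smc1b had a log2 fold of -0.42 at a mean count of 5069 in the authors' deposited table, just outside the threshold (adjusted p = 0.0768) and 179th from the lowest. Rec8, the kleisin that maintains sister cohesion until the second meiotic division, had a fold of 0.15 at a mean count of 572 in the authors' deposited table (adjusted p = 0.978). The kleisins REC8 and RAD21L thus had folds of opposite sign in the same libraries, and the difference between them was not tested, since that needs values per library.

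The mitotic subunits of P12 testis had small folds. Stag2 stood at 0.20, Smc1a, the SMC1 of somatic cells, at 0.16, and Rad21, the mitotic kleisin, at 0.10 in the authors' deposited table. Stag1 stood at -0.03 and Smc3, the SMC partner shared by mitotic and meiotic rings, at -0.03 in the authors' deposited table. None of the 5 passed (lowest adjusted p = 0.778). The median log2 fold was -0.49 for the meiotic subunits (3 of 4 below 0) and 0.10 for the mitotic subunits (2 of 5 below 0), while all tested genes had a median of 0.01 with 47.8% below 0. As the genes were chosen with earlier results known, this contrast is a description.

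**Figure D2:**
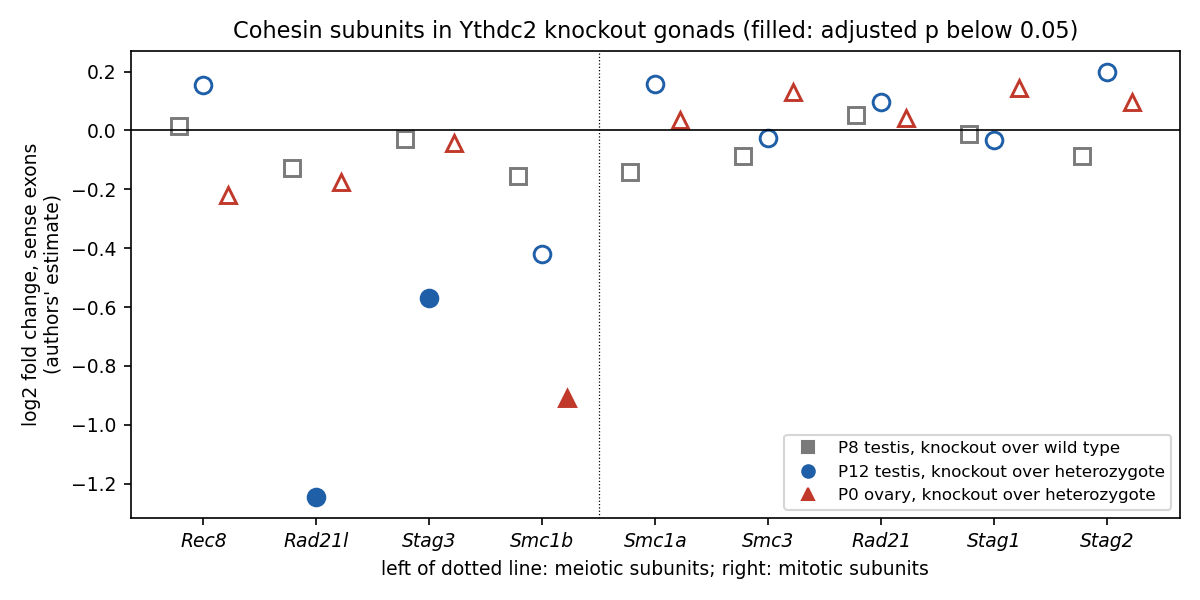
Log2 fold change in sense exons (authors' estimates) of the 9 cohesin subunits in P8 testis (knockout over wild type), P12 testis and P0 ovary (knockout over heterozygote), with filled symbols at adjusted p below 0.05. The filled points are Rad21l at -1.24 and Stag3 at -0.57 in P12 testis and Smc1b at -0.91 in P0 ovary, and the mitotic subunits lie between -0.14 and 0.20.

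Intron counts, which come mostly from unspliced RNA, lay on the same side as exon counts for each meiotic subunit of P12 testis. Rad21l introns fell by 0.92 on the log2 scale at a mean normalized count of 106 (adjusted p = 3.91e-05) by the authors' deposited table. They were the 1 intron set of the 9 subunits to be called, against 0.93% of 13874 tested introns called lower. Stag3 introns had a fold of -0.38 (adjusted p = 0.263) and Smc1b introns of -0.34 (adjusted p = 0.392) by the authors' deposited table, and neither passed. Rec8 introns stood at 0.17 and those of the mitotic subunits between -0.11 and 0.13 in the authors' deposited table. The exon fold of Rad21l lay 0.32 below its intron fold, a difference of -0.32 that ranked 94th lowest of 10459 genes whose mean count reached 50 in both. That rank pools genes whatever their counts, here 335 in exons and 106 in introns, and the difference was not tested. The lower intron count limits its reading, since folds at low counts may be understated. For Stag3 and Smc1b that difference was -0.18 and -0.08, inside the range above the 5th percentile of -0.22.

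Markers of spermatocytes moved with these genes. The synapsis gene Sycp3 and the recombinase gene Dmc1 were called lower at -0.66 and -0.69, and Sycp1 had a fold of -0.46 (adjusted p = 0.0774), so 2 of 3 spermatocyte markers were called in exons in the authors' deposited table. Of all tested genes 0.784% were called lower and 0.0964% higher in exons, so a marker list with 0 called is near the background. Of the 3 general germ cell markers 0 were called, with Ddx4 at -0.12, Dazl at 0.03 and Mael at -0.08 in the authors' deposited table. The 3 spermatogonial markers (Zbtb16, Kit and Stra8) were not called in exons either, and lay between -0.08 and 0.39. In introns Stra8, which is induced at meiotic entry, was called higher at 0.60 (adjusted p = 0.0173) by the authors' deposited table, where 0.0937% of introns were called higher. Dmc1 introns were called lower at -0.53 (adjusted p = 0.0298), while Sycp3 introns at -0.53 and Sycp1 introns at -0.45 did not pass, by the authors' deposited table. Of all tested introns 0.93% were called lower. The 3 Sertoli cell markers were not called, with a median of -0.32, and neither were the 2 peritubular, 3 oocyte, 2 measured blood and 1 measured pregranulosa markers, while no spermatid marker reached the floor. The Leydig cell gene Cyp17a1 was called higher at 0.76 in the authors' deposited table, and 1 of 2 measured Leydig markers passed. The part of cell composition in the falls of Rad21l and Stag3 was not tested.

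Sequences upstream of a transcript start of each meiotic subunit gene are shown as a description, and no link between sequence and fold was tested. They are the 250 bases before a RefSeq transcript start (GRCm38.p6), with capitals at matches to any of 4 short motifs: TTCCCGC (E2F), CACGTG (E-box), CNCCTCAG (STRA8) and TGACGT (part of the CREB site), on both strands. The core AACNG of MYB factors was searched too but not capitalized, and no matches overlapped in these windows. The gene spans in GRCm38 are chr2:151644366-151670622 for Rad21l, chr5:138272514-138312397 for Stag3, chr15:85064689-85131957 for Smc1b and chr14:55618002-55625395 for Rec8. The transcript starts used for Rad21l, Stag3 and Rec8 lie inside those spans. For Rad21l and Stag3 the whole window does too, so it is not the sequence before the outer end of the gene.
Rad21l (chr2:151668534-151668783, minus strand): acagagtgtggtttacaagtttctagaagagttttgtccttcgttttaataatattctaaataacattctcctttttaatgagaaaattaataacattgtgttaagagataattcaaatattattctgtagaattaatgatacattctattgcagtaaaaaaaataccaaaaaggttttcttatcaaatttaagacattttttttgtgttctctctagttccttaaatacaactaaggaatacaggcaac
Stag3 (chr5:138280259-138280508, plus strand): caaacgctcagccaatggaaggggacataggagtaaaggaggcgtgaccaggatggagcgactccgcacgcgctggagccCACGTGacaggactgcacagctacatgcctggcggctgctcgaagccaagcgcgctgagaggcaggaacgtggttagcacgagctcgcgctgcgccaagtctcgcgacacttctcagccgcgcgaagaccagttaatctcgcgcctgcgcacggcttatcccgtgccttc
Smc1b (chr15:85131958-85132207, minus strand): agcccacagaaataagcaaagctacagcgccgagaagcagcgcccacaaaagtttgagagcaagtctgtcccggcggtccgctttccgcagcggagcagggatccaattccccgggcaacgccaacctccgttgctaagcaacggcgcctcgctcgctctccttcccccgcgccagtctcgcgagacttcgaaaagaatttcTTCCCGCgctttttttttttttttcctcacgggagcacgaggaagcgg
Rec8 (chr14:55617916-55618165, plus strand): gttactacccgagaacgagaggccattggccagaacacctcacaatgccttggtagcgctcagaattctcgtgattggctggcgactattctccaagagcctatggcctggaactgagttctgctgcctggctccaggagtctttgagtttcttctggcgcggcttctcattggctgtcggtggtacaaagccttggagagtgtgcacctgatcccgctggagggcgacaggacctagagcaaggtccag

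The Rad21l window, which lies inside the span of the gene, had 1 CpG and 25.6% G and C. The Stag3 window, also inside its gene, had 26 CpGs, that of Smc1b 25 and that of Rec8 10. Of 32851 promoters in the table, 18.8% had at most 1 CpG, and the median was 6. The mitotic subunits with an entry, Smc1a, Smc3 and Stag1, had 16, 26 and 31 CpGs. Smc1b held TTCCCGC at position -48, counted back from -1 at the base before the start, and 3.82% of all promoters held it. Stag3 held CACGTG at -170, which 6.02% of promoters held. The windows of Rad21l and Rec8 held none of the 4 capitalized motifs, and none of the 4 meiotic genes held CNCCTCAG or TGACGT, found in 6.42% and 6.47% of promoters. The core AACNG, in 74.2% of promoters, was in the windows of Stag3, Smc1b and Rec8. These matches describe letters and do not show binding.

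In the newborn ovary a different meiotic subunit was lower. Smc1b fell to 53.2% of the heterozygous level, a log2 fold of -0.91 at a mean normalized count of 688 (adjusted p = 1.53e-07) by the authors' deposited table. It was the 1 subunit of 9 called, 29th from the lowest of 14606 tested genes, of which 0.445% were called lower and 0.103% higher. Rec8 had a fold of -0.22, Rad21l of -0.18 and Stag3 of -0.04 in the authors' deposited table, and none of the 3 passed (adjusted p of 1.00 for each). Rec8 and Rad21l were scarce there, with mean normalized counts of 59.5 and 34.5. Among the 2768 exons with mean counts between 20 and 80, 14 were called lower, the 5th percentile was -0.21 and the lowest fold was -1.38.

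The 5 mitotic subunits of the ovary had folds above 0, and none passed. They ran from 0.03 for Smc1a and 0.04 for Rad21 through 0.10 for Stag2 and 0.13 for Smc3 to 0.14 for Stag1 in the authors' deposited table. Their median was 0.10, against -0.20 for the 4 meiotic subunits, all below 0, and against 0.00 for all tested genes, with 48.2% of those below 0. Stag3, called lower in P12 testis, had a mean count of 244 in ovary, where its fold lay close to the median of all genes. Whether a subunit's fold differed between testis and ovary was not tested, since the tables were fitted separately and give no error for a fold.

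The deposited exon and intron folds of Smc1b differed in the ovary. Its introns had a log2 fold of 0.05 at a mean normalized count of 88.6 (adjusted p of 1.00) by the authors' deposited table, against the fall of its exons. The exon fold minus the intron fold was -0.96, the 3rd lowest of 8892 genes whose mean count reached 50 in both. That rank pools genes whatever their counts, here 688 in exons and 88.6 in introns, and the difference was not tested. Folds at low counts may be understated, so the lower intron count limits the reading of this difference. Among the 3034 introns with mean counts between 50 and 150, 8 were called lower, the 5th percentile was -0.21 and the lowest fold was -2.34. Of the 9 subunits, 7 had introns past the floor of 10 and 0 were called, against 0.279% of 12915 tested introns called in either direction. Rad21l and Rec8 were the 2 below it, at 9.56 and 7.86. Smc3 showed a difference of the other sign, with exons at 0.13 and introns at -0.22 in the authors' deposited table, neither of which passed. In P12 testis the exon and intron folds of Smc1b had differed by -0.08.

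**Figure D3:**
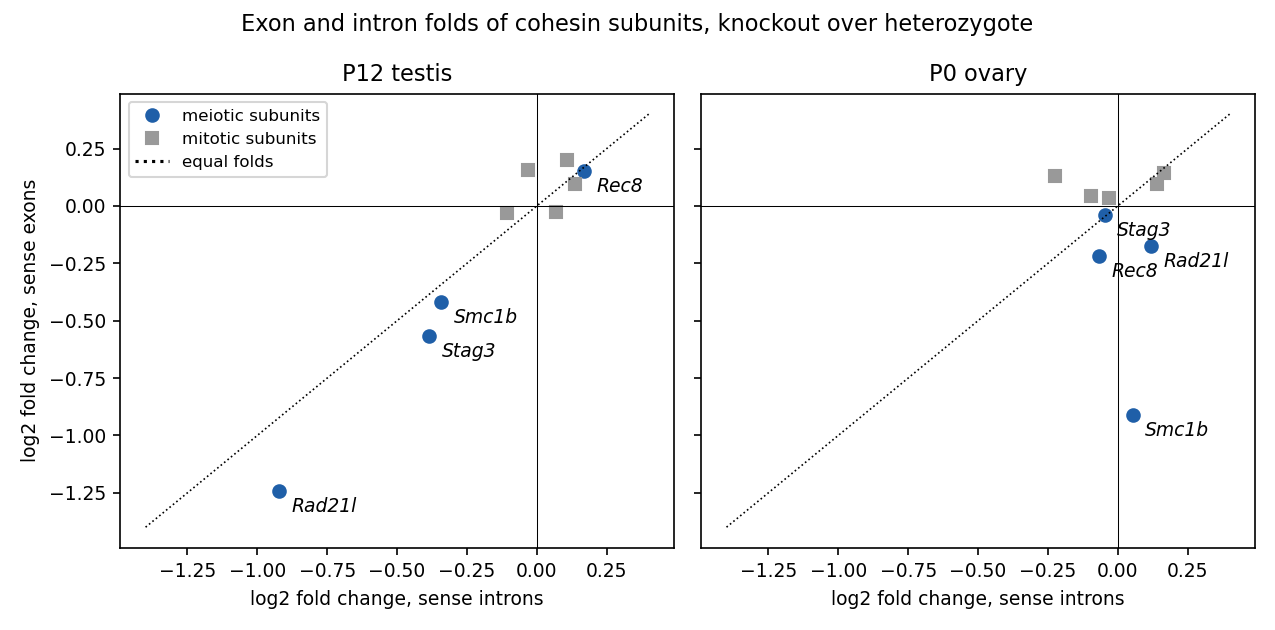
Log2 fold change in sense introns (horizontal axis) against sense exons (vertical axis) of the 9 subunits, knockout over heterozygote, in P12 testis (left) and P0 ovary (right), with the dotted line at equal folds. In P12 testis Rad21l, Stag3 and Smc1b have both values below 0, with Rad21l 0.32 under the line, and in ovary Smc1b lies at -0.91 in exons and 0.05 in introns.

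Oocyte markers moved with Smc1b in the ovary. The oocyte transcription factor genes Nobox at -1.79 and Figla at -1.41 were called lower, and Zp3, a coat protein gene of oocytes, had a fold of -0.28 (adjusted p = 0.440), so 2 of 3 were called in the authors' deposited table. Of all tested ovary genes 0.445% were called lower and 0.103% higher in exons, so a marker list with 0 called is near the background. Of the germ cell markers, Mael was called lower at -1.21 while Ddx4 (-0.34) and Dazl (-0.15) were not, in the authors' deposited table. The axis and recombination genes Sycp1, Sycp3 and Dmc1 had folds of -0.43, -0.13 and 0.34 by the authors' deposited table, and 0 of the 3 passed. The 2 pregranulosa markers, Foxl2 and Wnt4, stood at -0.10 and 0.03 in the authors' deposited table. Of the 3 genes taken as spermatogonial markers in testis, Kit was called lower at -0.84 and Stra8 higher at 0.52 in ovary in the authors' deposited table. The measured Sertoli, Leydig, peritubular, blood and spermatid markers, 2 of each, were not called. The spermatid genes Prm2 and Prm1 had mean normalized counts of 69.6 and 18.9 in ovary, beside 59.5 for Rec8 and 34.5 for Rad21l. The spermatid genes Tnp1 and Acrv1 lay below the floor, at 6.37 and 2.35. The source of these spermatid transcripts, and whether it adds to the counts of scarce subunits, was not tested. The part of oocyte number in the fall of Smc1b was not tested.

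The genes nearest to Smc1b and to Stag3 were found by Euclidean distance over 4 log2 folds, those of exons and introns in P12 testis and in P0 ovary, among 8440 genes whose mean count reached 50 in all 4. Nearest to Smc1b were Rnf17, Prdm16 and Tdrd5, at distances of 0.390, 0.408 and 0.412. Rnf17 had ovary folds of -0.71 in exons and 0.03 in introns by the authors' deposited table, and -0.10 and -0.24 at P12. Tdrd5 had ovary folds of -0.73 in exons and -0.17 in introns by the authors' deposited table, and Prdm16 -0.69 in exons and -0.00 in introns. All 3 had smaller folds than Smc1b in P12 exons and ovary exons. Nearest to Stag3 were Samd4b, Ero1lb and Asb1, at distances of 0.108, 0.116 and 0.131, with P12 exon folds of -0.48, -0.51 and -0.68 by the authors' deposited table. Rad21l and Rec8 had too few intron counts in ovary to be placed.

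At P8, before most spermatocytes form, the subunits showed small folds in the knockout. Against wild type, 0 of 9 were called in exons, and all had an adjusted p of 1, while 0.0449% of 15592 genes were called. Smc1b had the largest fold in size, -0.16 at a mean normalized count of 2579, in the authors' deposited table, followed by Smc1a at -0.14 and Rad21l at -0.13. Each of these lay below the 5th percentile of all tested genes, -0.125, and none passed. Stag3 stood at -0.03, Rec8 at 0.01 and Rad21 at 0.05 in the authors' deposited table. In exons the meiotic median was -0.08 (3 of 4 below 0) and the mitotic median -0.09 (4 of 5 below 0). All tested genes had a median of 0.0001 with 49.9% below 0.

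Against the single heterozygote at P8, 0 of 9 were called as well, with 0.0577% of genes called. There Smc1b had a fold of -0.13, Smc1a of -0.12, Rad21l of -0.09 and Rec8 of 0.09 in the authors' deposited table. Both comparisons share the 2 knockout libraries. In the heterozygote against wild type the 9 folds lay between -0.08 and 0.04 in the authors' deposited table. In introns 0 of 9 were called against wild type, beside 0.0141% of 14173 introns, with folds from -0.21 for Rad21l to 0.19 for Stag1 in the authors' deposited table. The medians in introns lay apart, at -0.12 for the meiotic subunits, 4 of 4 below 0, and 0.074 for the mitotic subunits, 4 of 5 above 0. Against the heterozygote they were -0.12, with 4 of 4 below 0, and 0.032, with 5 of 5 above 0. All tested introns had a median of 0.005 in each comparison, with 48.2% below 0 against wild type and 47.6% against the heterozygote. Since no subunit passed at P8 in exons or introns, these medians are descriptions, and whether they differ between ages was not tested.

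Among the genes for proteins that load, lock, release and cut cohesin, 0 of 15 measured in P12 testis were called, with 7 below 0 and a median of 0.01. With 0.784% of all genes called lower and 0.0964% higher, a count of 0 among 15 is near the background. Meikin, a meiotic kinetochore factor that helps to protect cohesin, was lowest at -0.31 at a mean normalized count of 16.4 (adjusted p = 0.403), and Sgo1, a shugoshin that shields centromeric cohesin, was highest at 0.21, in the authors' deposited table. In ovary 14 of the 15 were measured, 0 were called beside 0.445% of all genes called lower and 0.103% higher, and the median was 0.03. Espl1, which encodes separase, the protease that cuts the kleisin, was lowest there at -0.20, and Sgo2a, the shugoshin of germ cells, highest at 0.19, in the authors' deposited table. The cohesin loader gene Nipbl stood at -0.22 in P12 testis and -0.07 in ovary in the authors' deposited table.

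Condensin and the SMC5/6 complex are built on relatives of SMC1 and SMC3. Of their 14 genes 0 were called in P12 testis, with 4 below 0 and a median of 0.03, and 0 in ovary, with 8 below 0 and a median of -0.02. Against the same shares of all genes called, these counts are near the background too. In P12 testis the folds ran from -0.14 for the condensin gene Ncapg to 0.21 for the condensin gene Smc2 in the authors' deposited table. In ovary they ran from -0.30 for Ncapg to 0.16 for Ncapg2 in the authors' deposited table.

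In the m6A immunoprecipitate of P8 testis every cohesin subunit was below its input in exons. The comparison rests on 1 library of each kind, so a call compares those libraries and has no replicate check. All 9 were called lower, against 26.3% of 15807 tested genes called lower and 26.9% called higher. Stag2 had the lowest log2 ratio of immunoprecipitate to input, -1.72 (adjusted p = 5.77e-17), and Rec8 stood close to it at -1.71 (adjusted p = 0.000141) by the authors' deposited table. Stag1 at -1.35, Stag3 at -1.28, Rad21 at -1.001, Smc1b at -0.96 and Rad21l at -0.92 followed in the authors' deposited table. Smc3 at -0.90 and Smc1a at -0.67 were nearest to their input in the authors' deposited table. Rad21l, just inside the threshold, had the highest adjusted p of the 9 (0.0278) by the authors' deposited table.

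Meiotic and mitotic subunits had similar ratios in the m6A comparison, with medians of -1.12 and -1.001, against -0.02 for all tested genes with 50.5% below 0. The subunits that fell in the knockout, Rad21l and Stag3 at P12 and Smc1b in ovary, lay among the others. A ratio below 0 means a lower normalized count in the immunoprecipitate than in the input, and it does not show that a transcript carries no m6A. In introns, 7 of 9 subunits had an adjusted p and 1, Rad21 at -0.99 (adjusted p = 0.0498), was called lower in the authors' deposited table, against 3.11% of 9410 introns.

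The same comparison was read for the other lists. Median log2 ratios in exons were -2.07 for the 3 germ cell markers, -1.06 for the 3 spermatocyte markers and -0.30 for the 3 Sertoli cell markers. The 1 measured pregranulosa marker stood at 1.15. Ratios as low as those of the subunits were thus not particular to cohesin. Of the 14 condensin and SMC5/6 genes 11 were called lower and 1 higher, with a median of -1.24, and the range ran from Nsmce4a at -1.82 to Nsmce3, also named Ndnl2, at 2.10, in the authors' deposited table. Of the 15 cohesin regulators 5 were called higher and 3 lower, with a median of 0.20, which is near the shares of all genes called (26.9% higher and 26.3% lower). Sgo2a at 1.51, the acetyltransferase gene Esco1 at 1.35, Sgo1 at 1.19, Cdca5, which encodes sororin, at 0.67 and the release factor gene Wapl at 0.50 were called higher in the authors' deposited table. Pds5a at -1.19, the securin gene Pttg1 at -1.18 and the acetyltransferase gene Esco2 at -0.89 were called lower in the authors' deposited table. Other called genes of the condensin and SMC5/6 list stood between -1.78 for Ncapd3 and -0.99 for Smc2 in the authors' deposited table, with Ncapg2 and Ncaph2 not passing.

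**Figure D4:**
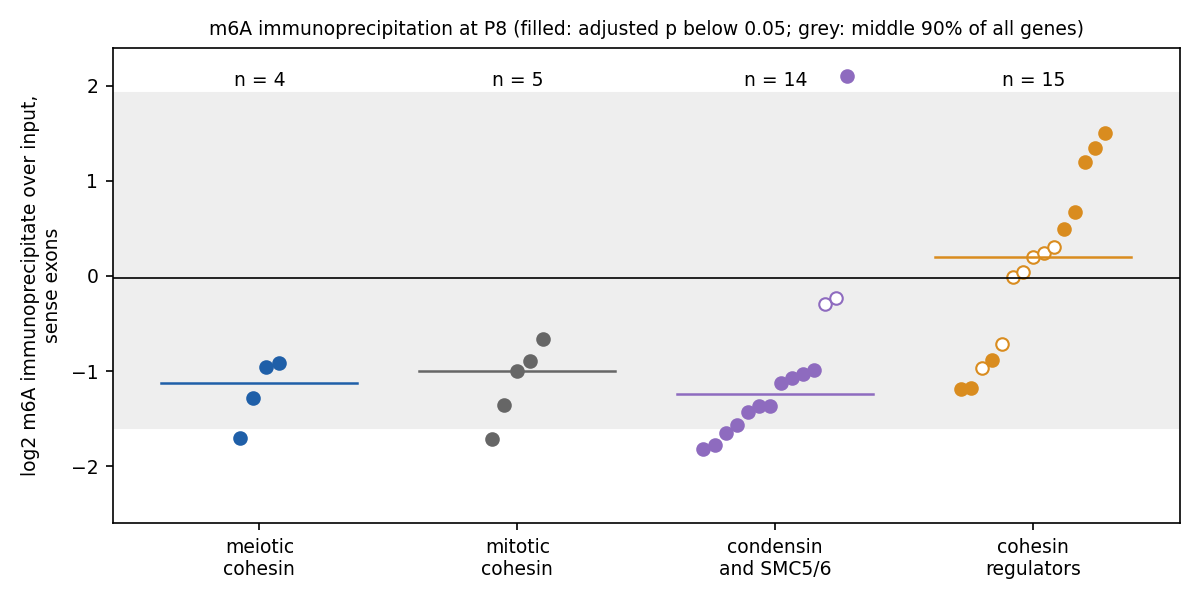
Log2 ratio of m6A immunoprecipitate over input in sense exons of P8 testis for meiotic cohesin, mitotic cohesin, condensin with SMC5/6, and cohesin regulators, 1 point per gene, filled at adjusted p below 0.05, with list medians as coloured lines, the median of all genes as a black line and their middle 90% in grey. All 9 cohesin subunits are filled and lie between -1.72 and -0.67, while the regulators reach from -1.19 to 1.51.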

How the data were processed

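The mouse data came as 4 deposited tables of comparisons made by the authors, with rows for genes, repeats and miRNAs. Per the file headers, their columns are the normalized count averaged across a table's libraries (unit: signal), the log2 fold change and the adjusted p-value. The submitters' processing notes name DESeq2 and mm10, and cutadapt for the ovary. The aligner, counter, annotation and all versions were not stated in the sources used. The headers of both testis tables of total RNA mention IP and input, but the labels list total RNA alone, so the columns were taken as knockout over control. The total RNA kit keeps strand, per the labels' protocols.

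A planned edgeR fit needed values per library, which the tables do not hold, so calls rest on the authors' adjusted p below 0.05, over genes with a mean count of at least 10. Unadjusted p-values were not used here. In the m6A table the columns of each age ran in order of p within a feature type. Exon and intron ratios of 8040 genes had a Spearman's rho of 0.22 for the P8 columns and 0.01 for the P12 columns, and it was near 0 for P20, so P12 and P20 were set aside. The text names all 9 subunits, the called genes of 2 lists (15 cohesin regulators, 14 condensin and SMC5/6 genes) or else their lowest and highest, and the 3 nearest genes of each meiotic subunit that could be placed (Smc1b and Stag3). Nipbl and further unpassed genes of these lists are named outside that rule, after their values were seen. Members and lists were chosen with earlier results of these data known. Sgo1, Sgo2a and Nsmce3 were matched through RefSeq synonyms, and 19241 of 20215 exon names at P12 matched a RefSeq symbol (GRCm38). Counting and distance steps were tested on simulated data (Python 3.11.15, pandas 2.3.3). In the Bind-N-Seq file 8 columns matched no label, and that file was not used here.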

Additional observations from a re-analysis of the deposited data

Results flagged for a closer look

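Antisense counts over cohesin subunits, which no comparison above uses, reached a mean normalized count of at least 10 in 9 cases. Those of Smc1b were 92.5 in introns and 11.9 in exons at P8, 24.8 in introns at P12, and 39.6 in introns and 13.1 in exons of the P0 ovary. Smc1a introns had antisense counts of 37.5 at P8 and 33.5 at P12, and Stag1 introns 18.1 at P8 and 11.7 in ovary. None passed between knockout and control in the authors' deposited tables. Sense introns of Smc1b had mean counts of 685 at P8, 962 at P12 and 88.6 in ovary.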

How the results depend on the processing

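No paired analysis was possible because the tables hold no value per library, and for the same reason no replicate could be left out. Counts of called subunits (knockout exons, introns of P12 testis and ovary, m6A exons) and of called list genes in knockout exons of P12 testis and ovary stayed within 1.5 times their values at thresholds of 0.01 and 0.10 and with no floor or a floor of 50, as did the P8 exon count with the heterozygote as control. The m6A intron count was not recomputed, and its 1 call, Rad21, has an adjusted p of 0.0498. At 0.10 Smc1b passes in P12 testis, and at 0.01 Rad21l no longer passes in the m6A comparison. The median of meiotic minus mitotic subunits was -0.59 in P12 testis, -0.43 in introns and -0.60 on means. In ovary it was -0.29, 0.033 in introns where 2 meiotic subunits passed the floor, -0.43 on means and -0.31 at a floor of 50. In introns the fold changed sign for Smc1a (-0.032) and Smc3 (0.069) in P12 testis, and for Rad21l (0.12), Smc1b (0.053), Smc1a (-0.030), Smc3 (-0.22) and Rad21 (-0.10) in ovary, and Stag3 no longer passed in P12 testis (-0.38). Stag1 turned from -0.01 to 0.0080 with the heterozygote as P8 control. Centring on the median of all exons turned no fold of the 9 subunits in P12 testis or ovary exons. The causes were not tested. With 2 or 3 libraries a group, and 1 in each P8 control, small folds cannot be resolved.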
